A study of Mus musculus with 36 samples.

Results

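The 10 genes described here belong to the machinery that makes peptides and loads them onto MHC class I molecules. They are the inducible catalytic subunits of the immunoproteasome (Psmb8, Psmb9 and Psmb10), the proteasome activator subunits Psme1 and Psme2, the peptide transporter subunits Tap1 and Tap2, tapasin (Tapbp), the class I transactivator Nlrc5 and the ubiquitin-like modifier FAT10 (Ubd). They were taken by gene symbol and make up 10 of the 52636 genes listed for every library, of which 35778 had a read in at least 1 library. All 10 had reads. All 10 passed the filter on low counts in both sets of intestines, and 9 passed it in the fibroblasts, where Ubd did not.

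RNA was sequenced in 36 libraries of 12 groups, each with 3 biological replicates, to ask how the loss of cFLIP (Cflar), caspase-1, the interferon receptor subunit Ifnar1 or FADD alters transcription when caspase-8 carries either of the mutations D387A and C362A. The D387A set held 18 whole intestines of E18.5 embryos: Mlkl-/- controls, Casp8 D387A, Casp8 D387A Cflar-/- Mlkl-/-, Casp8 D387A Cflar-/- Mlkl-/- Casp1-/-, Casp8 D387A Cflar-/- Mlkl-/- Casp1-/- Ifnar1-/-, and Casp8 D387A Cflar-/- Mlkl-/- Casp1-/- Fadd-/-. The C362A set held 12 E18.5 intestines: Mlkl-/- controls of its own, Casp8 C362A Mlkl-/-, Casp8 C362A Mlkl-/- Casp1-/-, and Casp8 C362A Cflar-/- Mlkl-/-. Mouse embryonic fibroblasts (MEFs) were Mlkl-/- or Casp8 D387A Cflar-/- Mlkl-/-. The D387A mutation removes a site at which caspase-8 is cleaved, and the C362A mutation removes its catalytic cysteine. Loss of Mlkl, the effector of necroptosis, was shared by every group, controls included, except the Casp8 D387A embryos, whose label names no Mlkl deletion, so that comparison differs from its control at both genes. The Fadd, Casp8, Casp1, Ifnar1 and Mlkl lines had a C57BL/6N background. The deletions are carried by the whole embryo, nothing was given to the animals or cells, and each intestine was sequenced whole, with epithelium, muscle, nerve and blood cells together. A higher or lower transcript level in such a sample can reflect more RNA per cell or more cells that hold the transcript, and these cannot be told apart.

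A cell builds its standard proteasome with constitutive catalytic subunits (Psmb5, Psmb6 and Psmb7), and interferons and TNF are known to induce the subunits that take their places (Psmb8, Psmb9 and Psmb10). The Psme1 and Psme2 products form a ring that caps the proteasome and opens it. Peptides are then pumped into the endoplasmic reticulum by the heterodimer of Tap1 and Tap2, and tapasin holds empty class I molecules at that pump. Nlrc5 enters the nucleus and switches on class I genes and several genes of this pathway. FAT10 marks proteins for the proteasome and is known for its strong induction by interferon-gamma together with TNF.

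Between 17943524 and 32307629 reads per library fell on genes. The targeted genes were checked first. Casp1 stood at 0 to 0.212 CPM (counts scaled to library size) in the Casp1-/- libraries of the D387A set, against 42.6 to 87.9 CPM in the others. Fadd stood at 0.659 to 1.01 CPM in the Fadd-/- libraries and at 36.3 to 50.5 CPM elsewhere in that set, and Ifnar1 at 33.2 to 37.9 CPM in the Ifnar1-/- libraries against 76.1 to 93.6 CPM elsewhere. Transcripts of Mlkl and Cflar remained in the knockouts, so their counts do not check those labels. The third Casp8 D387A Cflar-/- Mlkl-/- Casp1-/- embryo stood apart from the other 2 of its group at every member, and the comparisons of its group are given with and without it. Enterocyte markers (Alpi, Fabp1, Fabp2, Apoa1 and Lct) summed to at least 923 RPKM in every intestine and to at most 0.213 RPKM in the MEFs. RPKM, the unit of level used throughout, relates a gene's reads to its width and to the normalized size of the library, so that levels can be compared between genes.

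Most of the genes lie on chromosome 17, in or near the MHC. In GRCm38, with the GENCODE M21 annotation, Psmb9 (chr17:34181987-34187764, minus strand), Tap1 (chr17:34187553-34197225, plus strand), Psmb8 (chr17:34197721-34201454, plus strand) and Tap2 (chr17:34203527-34216321, plus strand) follow each other within 34335 bases. Tapbp (chr17:33915899-33929292) and Ubd (chr17:37193892-37196095) lie on either side of them. Psme1 (chr14:55578123-55581529) and Psme2 (chr14:55587441-55591113) are neighbours on chromosome 14, while Psmb10 (chr8:105935735-105938444) and Nlrc5 (chr8:94434356-94527272) lie apart on chromosome 8. Psmb9 and Tap1 start head to head, and their promoter windows share 275 bases.

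Promoter windows from RefSeq (build GRCm38.p6, 250 bases before to 50 bases after a start) existed for 8 of the 10 genes, and Tap2 and Nlrc5 had none. Ubd and Psme2 are shown because they had the widest and among the narrowest ranges of expression over the genotypes. The 250 bases before the start are given for Ubd (chr17:37193642-37193891, plus strand) and Psme2 (chr14:55591102-55591351, minus strand), 5′ to 3′, with capitals for a match to a motif searched.
Ubd: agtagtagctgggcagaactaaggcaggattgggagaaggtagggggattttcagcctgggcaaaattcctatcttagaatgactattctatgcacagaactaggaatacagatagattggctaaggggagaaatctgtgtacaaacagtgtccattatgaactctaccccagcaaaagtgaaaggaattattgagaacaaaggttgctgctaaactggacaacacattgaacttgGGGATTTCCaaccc
Psme2: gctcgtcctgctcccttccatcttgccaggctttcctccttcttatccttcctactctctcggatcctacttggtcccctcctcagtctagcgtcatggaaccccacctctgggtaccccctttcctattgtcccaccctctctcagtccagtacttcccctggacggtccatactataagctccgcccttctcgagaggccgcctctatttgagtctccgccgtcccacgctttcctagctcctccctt
The motifs were the core of an interferon regulatory factor element (GAAANNGAA), the interferon-gamma activated site (TTCNNNGAA) and part of an NF-kB site (GGNNTTTCC), each on both strands. Of 32851 mouse windows of the same length, 8.56% held the first, 8.3% the second and 5.82% the third, and 20.7% held at least 1 of them. A match was found in 3 of the 8 genes, 1 in each, which is a description of letters and not of binding. The matches and 10 bases on either side lie at chr14:55578494-55578522 for Psme1 (the first motif, read on the other strand), chr17:34198088-34198116 for Psmb8 (the second) and chr17:37193868-37193896 for Ubd (the third).
Psme1: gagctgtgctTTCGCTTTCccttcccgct
Psmb8: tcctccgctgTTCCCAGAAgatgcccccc
Ubd: attgaacttgGGGATTTCCaacccagcta
The Psmb8 match began 97 bases before the start and the Ubd match 14 bases before it, whereas the Psme1 match began 11 bases after it. The windows of Tap1, Psmb9, Psmb10, Tapbp and Psme2 held none of the 3 patterns.

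In control intestines the genes were expressed at very different levels. In the D387A set, Psme1 was the most abundant per kilobase (108 to 117 RPKM), followed by Psmb10 (68.7 to 83.6 RPKM) and Tapbp (57.2 to 67.5 RPKM). Psmb8, Psmb9, Psme2 and Tap1 lay between 9.45 and 21.9 RPKM, and Tap2 between 5.39 and 6.32 RPKM. Nlrc5 was close to silent, at 0.230, 0.278 and 0.222 RPKM in the 3 embryos (116 reads in all), as was Ubd at 0.162, 0.226 and 0.806 RPKM (22 reads in all). The C362A controls had the same order at both ends, with Psme1 at 91.1 to 106 RPKM and Nlrc5 and Ubd at or below 0.317 RPKM. Uniquely mapped reads were counted, and 28.3% of the 50-base windows of Psme2 also occur in Psme2b, an intronless near copy, so the Psme2 values carry that uncertainty. Psme2 stood at 0.214 to 0.322 of the Psme2b level in all 36 libraries. For Tapbp 23.2% of windows are shared with other genes' transcripts, most with the antisense gene Gm19412, for Psmb8 11.9% and for Tap2 11.6%. How the authors' counting treated strand is not given in the sources used here. Reads of overlapping genes on the other strand therefore cannot be told apart from those of Tapbp, Psmb8, Tap2, Psmb9 and Tap1. Over all libraries, Gm19412 was credited with 1235 reads, Gm20496 at Psmb8 with 159 and Gm15821 at Tap2 with 109. Tap1 and Psmb9 share 212 exon bases with each other on opposite strands and were credited with 166681 and 76524 reads. Zbtb22, with 37371 reads, shares 149 exon bases with Tapbp on the same strand.

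**Figure D1:**
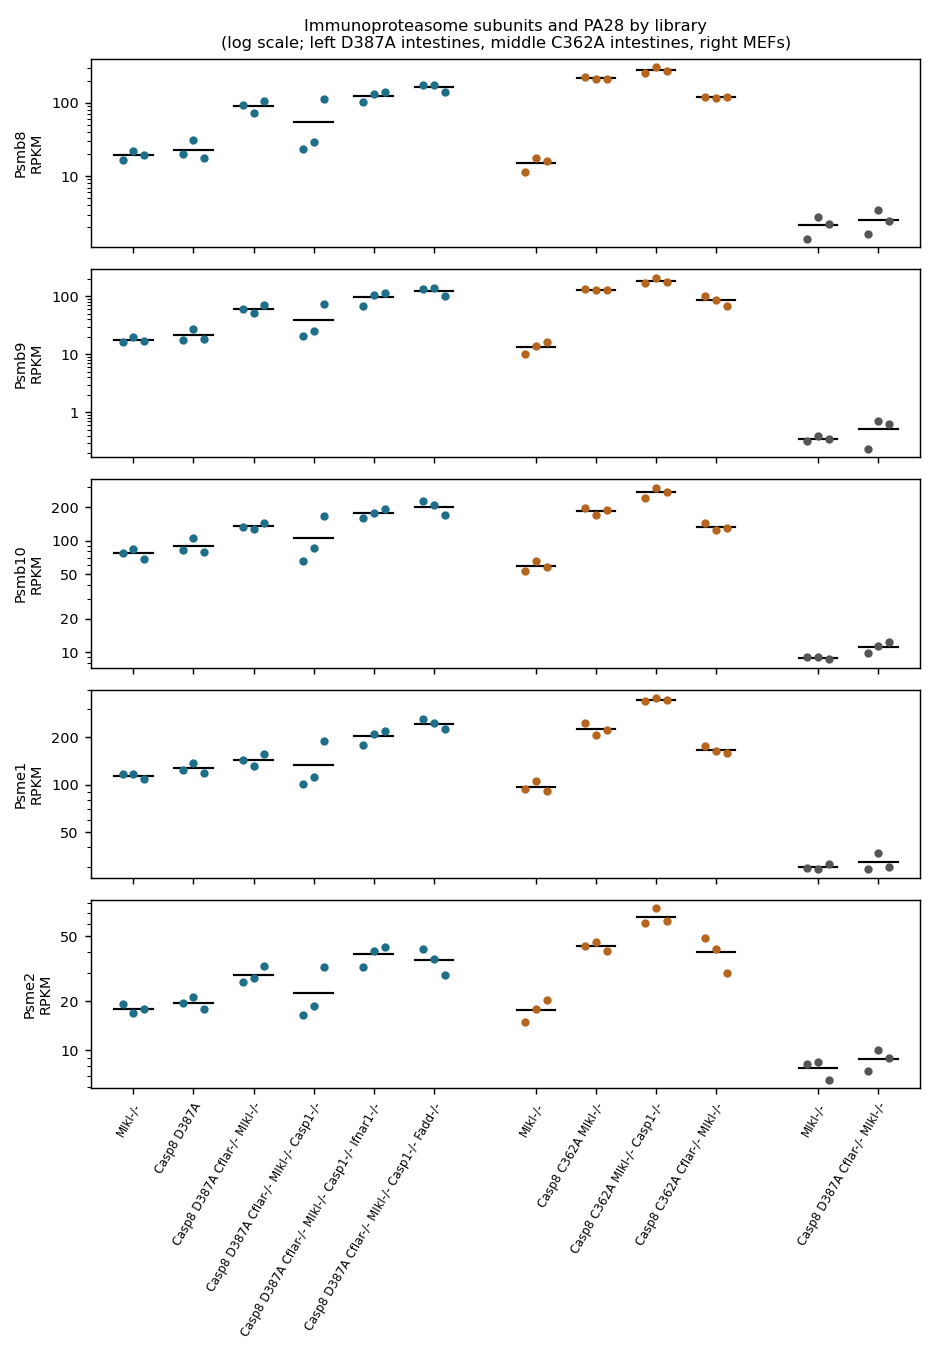
Levels of the immunoproteasome subunits Psmb8, Psmb9 and Psmb10 and of the activator subunits Psme1 and Psme2 in all 12 groups (RPKM, log axis). Points are the 3 libraries of a group and bars their mean. In each panel the Casp8 C362A Mlkl-/- Casp1-/- intestines have the highest mean and the MEFs the lowest levels, and the third Casp8 D387A Cflar-/- Mlkl-/- Casp1-/- embryo lies above the other 2 of its group.

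Loss of cFLIP together with caspase-8 D387A came with higher transcript levels of most of these genes. In Casp8 D387A Cflar-/- Mlkl-/- intestines, every member had all 3 libraries above all 3 Mlkl-/- controls, and 9 of the 10 rose at an adjusted p under 0.05. Of all genes tested, 34.3% had groups apart in this direction and 29.9% rose at that adjusted p. A total of 6 were called, that is, they also had a log2 fold change above 1, by the quasi-likelihood test of edgeR, with p-values adjusted after Benjamini and Hochberg over all genes tested: Psmb8, Psmb9, Tap1, Tap2, Nlrc5 and Ubd. Over all 18360 genes tested, 9.40% were called higher. The median log2 fold change was 1.42 over the members and -0.01 over all genes.

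Among the catalytic subunits, Psmb8 (which replaces Psmb5) stood at 16.7, 21.9 and 19.2 RPKM in the controls and at 91.9, 72.8 and 105 RPKM in the Casp8 D387A Cflar-/- Mlkl-/- embryos. Psmb9 (which replaces Psmb6) went from 16.0, 19.5 and 16.9 RPKM to 59.6, 50.4 and 69.9 RPKM. For both genes the lowest mutant lay far above the highest control. The log2 fold change was 2.22 ± 0.421 (SE, adjusted p = 0.000206, edgeR) for Psmb8 and 1.78 ± 0.354 (adjusted p = 0.000328) for Psmb9. Psmb10 (which replaces Psmb7), abundant already in controls, went from 68.7 to 83.6 RPKM to 128 to 143 RPKM. Its log2 fold change was 0.81 ± 0.232 (adjusted p = 0.00625), so it rose without being called. The activator subunits had the smallest log2 fold changes of the members: Psme2 rose by 0.69 ± 0.199 (adjusted p = 0.00664), and Psme1, at 131 to 157 RPKM against 108 to 117 RPKM, had a log2 fold change of 0.33 ± 0.168 that did not pass the test (adjusted p = 0.0974).

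Both subunits of the peptide transporter were called, with unequal values. Tap1 stood at 10.4, 12.6 and 9.45 RPKM in controls and at 63.8, 54.9 and 66.6 RPKM in the Casp8 D387A Cflar-/- Mlkl-/- embryos, a log2 fold change of 2.51 ± 0.394 (adjusted p = 3.06e-05, edgeR with Benjamini-Hochberg adjustment). Tap2 stood at 5.39, 6.32 and 5.42 RPKM in controls and at 12.4, 9.47 and 13.9 RPKM in the mutants, a log2 fold change of 1.06 ± 0.308 (adjusted p = 0.00662). Neither gene's groups overlapped. The ratio of Tap1 to Tap2 in the same library was 1.74 to 1.99 in controls and 4.78 to 5.80 in the mutants, a difference given here without a test. The Tap2 call rested on the third mutant embryo, without which its log2 fold change was 0.94 (adjusted p = 0.0285). Tapbp rose by 0.89 ± 0.289 (adjusted p = 0.0134), from 57.2 to 67.5 RPKM to 99.7 to 124 RPKM.

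Nlrc5 and Ubd moved from near silence. Nlrc5 reached 4.43, 3.39 and 4.67 RPKM (2396 reads in all), a log2 fold change of 4.10 ± 0.563 (adjusted p = 7.21e-06, edgeR with Benjamini-Hochberg adjustment). Ubd reached 106, 59.8 and 133 RPKM (6621 reads), with a log2 fold change of 7.93 ± 1.21 (adjusted p = 2.26e-05). The fold change of Ubd is read against 22 control reads, and its standard error was the largest of the members in this comparison.

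Markers of several cell types differed between the same groups. The leukocyte markers Ptprc, Laptm5, Coro1a and Cd52 summed to 98.2 to 143 RPKM in Casp8 D387A Cflar-/- Mlkl-/- intestines against 46.7 to 51.8 RPKM in controls, and 1 of the 4 was called higher while all 4 had an adjusted p under 0.05. The neutrophil markers S100a8, S100a9, Ly6g, Retnlg and Mpo summed to 62.6 to 235 RPKM against 4.40 to 28.6 RPKM, with 4 of 5 called higher and Mpo called lower (-2.03). Of the macrophage markers Adgre1, Csf1r, Cd68, C1qa and Mrc1, 4 rose and Csf1r was called lower (-1.83), and their sums overlapped the controls (120 to 147 RPKM against 108 to 120 RPKM). Dendritic cell markers (Itgax, Flt3, Xcr1, Clec9a and Ccr7) summed to 4.86 to 9.57 RPKM against 1.49 to 1.71 RPKM. The enterocyte markers summed to 923 to 1777 RPKM, against 20926 to 23395 RPKM in controls. Markers of smooth muscle (1505 to 1889 RPKM against 1208 to 1296 RPKM), fibroblasts (637 to 662 RPKM against 465 to 503 RPKM) and endothelium (68.5 to 82.9 RPKM against 55.9 to 61.9 RPKM) were above the controls without overlap. The part of these cell types in the members' levels was not tested.

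**Figure D2:**
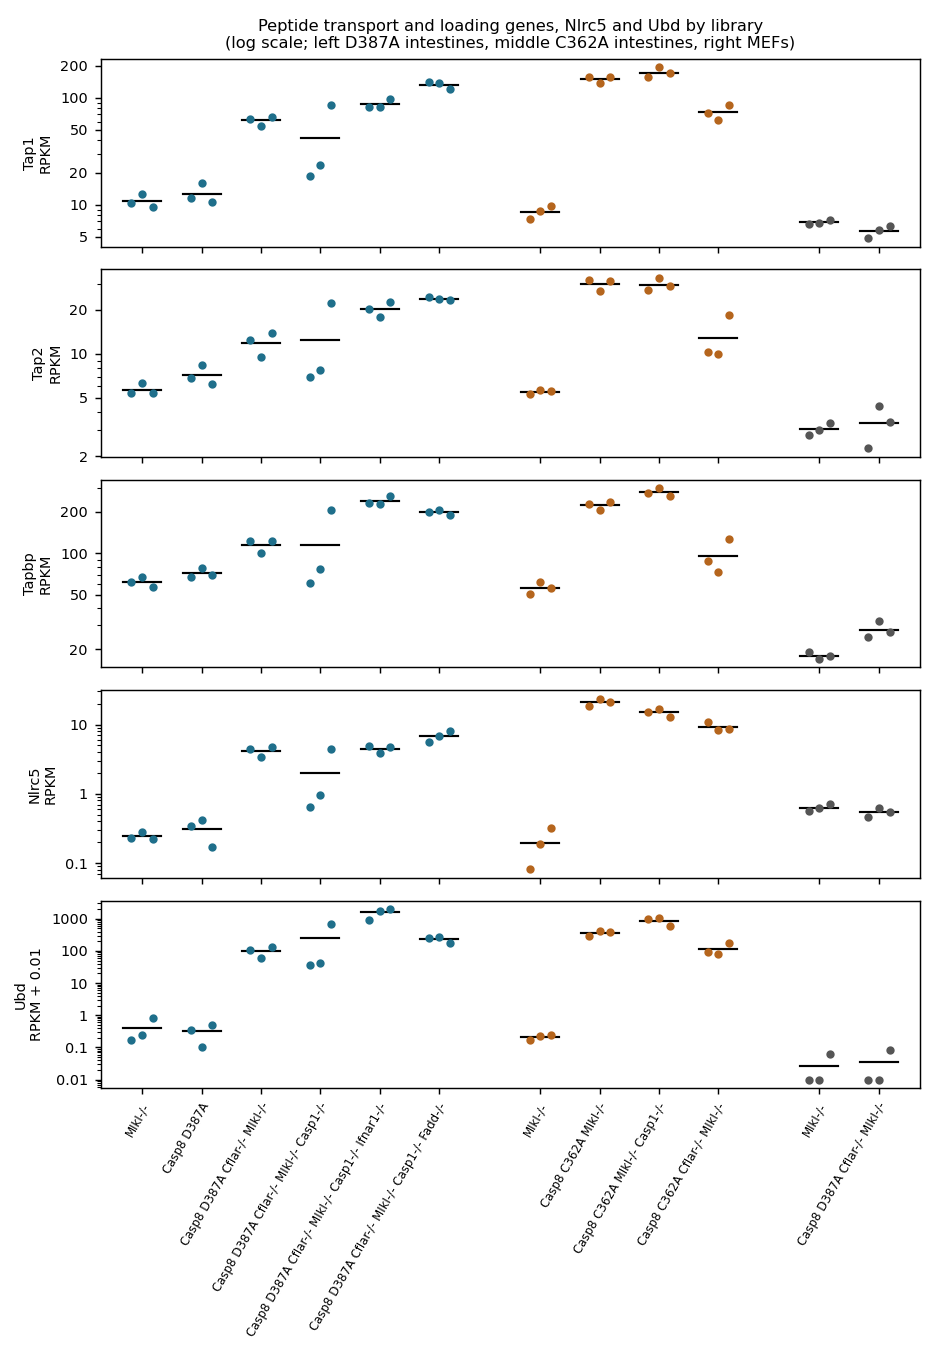
Levels of Tap1, Tap2, Tapbp, Nlrc5 and Ubd in all 12 groups (RPKM, log axis, with a small constant added for Ubd so that libraries at 0 can be drawn). Points are the 3 libraries of a group and bars their mean. In the control and Casp8 D387A intestines Nlrc5 reached at most 0.411 RPKM and Ubd at most 0.806 RPKM, in the other intestines the lowest libraries were at 0.644 and 36.1 RPKM, both of the Casp8 D387A Cflar-/- Mlkl-/- Casp1-/- group, and Ubd had 3 reads in all 6 MEF libraries together.

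Casp8 D387A embryos, with no other deletion named, did not show these differences. No member was called or had an adjusted p under 0.05 in edgeR, and none had an unadjusted p under 0.05. Limma-voom and DESeq2 called 0 as well, and 0% of all genes tested were called higher. The log2 fold changes ran from -0.37 (Ubd) to 0.32 (Tap2), with 9 of 10 above 0 and a median of 0.23 against 0.02 over all genes. Psmb8 stood at 20.2, 31.3 and 17.4 RPKM, so that the highest of these embryos exceeded every control and the lowest did not. Only for Psme1 (118 to 138 RPKM) and Tapbp (67.7 to 78.1 RPKM) were all 3 embryos above all 3 controls, as for 9.37% of all genes tested. Ubd had 19 reads in the 3 embryos together. These comparisons and those that follow in the D387A set share the same control libraries and are not independent of each other. In the sample titles of this set a leading number is shared by the controls and the Casp8 D387A Cflar-/- Mlkl-/- embryos and differs for each of the other groups. What it stands for is not given in the sources used here, and in every comparison with one of those other groups it cannot be told apart from the genotype.

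Deletion of Casp1 gave a group with uneven libraries. In Casp8 D387A Cflar-/- Mlkl-/- Casp1-/- intestines the third embryo had the highest value of its group for 10 of 10 members, from 1.79 to 17.3 times the mean of the other 2 (median 3.09). Over all genes with enough reads, its library differed from the other 2 by 69.2 and 70.8 times Poisson noise, against 13.2 between those 2. Psmb8 stood at 23.1, 29.0 and 112 RPKM, Tap1 at 18.4, 23.3 and 85.5 RPKM, and Ubd at 36.1, 41.8 and 672 RPKM. The third embryo lay above the range of the Casp8 D387A Cflar-/- Mlkl-/- embryos for these genes, and the other 2 lay below it. Both of the others exceeded every control for 6 members (Psmb8, Psmb9, Tap1, Tap2, Nlrc5 and Ubd), 1 of them did for Psmb10 and Tapbp, and neither did for Psme1 and Psme2. For these counts and that of the third embryo, the share over all genes is not given here. Casp1 transcripts were absent or nearly so in all 3, and the leukocyte markers summed to 65.1, 57.1 and 80.2 RPKM. Mlkl (3.13, 3.72 and 23.0 RPKM), Casp8 (25.8, 24.5 and 35.5 RPKM) and the summed neutrophil markers (11.6, 15.2 and 27.9 RPKM) were highest in the third embryo. Cflar (5.38, 6.03 and 6.04 RPKM), Ifnar1 (23.1, 23.9 and 22.7 RPKM) and Fadd (9.63, 11.1 and 10.8 RPKM) did not set it apart. The macrophage markers summed to 115, 113 and 205 RPKM, with Cd68 at 7.92, 6.65 and 24.8 RPKM, so the third embryo stood apart in these too. Its dendritic cell markers (3.54 RPKM against 1.41 and 1.88 RPKM) and general epithelial markers (1488 RPKM against 1009 and 1168 RPKM) were also the highest of the 3, and their part in its levels was not tested.

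Against Mlkl-/- controls, 6 members were called higher with all 3 of these embryos and 2 without the third, where 2.16% of all genes tested were called higher in the full fit and 1.32% without that embryo. With all 3, the called members were Psmb8 (log2 fold change 1.50), Psmb9 (1.17), Tap1 (1.97), Tap2 (1.11), Nlrc5 (3.05) and Ubd (9.26), and Tapbp also rose (0.89, adjusted p = 0.0365, edgeR with Benjamini-Hochberg adjustment). Without the third embryo, the called members were Nlrc5 (1.73, adjusted p = 0.000617) and Ubd (6.58, adjusted p = 2.65e-07), and Tap1 rose by 0.95 (adjusted p = 0.000516). The median over the members was 1.14 with the third embryo and 0.38 without it. Limma-voom called 2 members with all 3 embryos. Control libraries mattered too. Without the first control, Psmb8 (1.40, adjusted p = 0.0685), Psmb9 (1.10, adjusted p = 0.0906) and Tap2 (1.06, adjusted p = 0.0624) lost their calls and 3 remained. Without the second control 5 were called and without the third 4. In this comparison the enterocyte markers summed to 11334 to 14513 RPKM against 20926 to 23395 RPKM in controls, with 4 of 5 lower at an adjusted p under 0.05 and 2 called, 1 of 5 macrophage markers was called higher and 2 of 3 endothelial markers rose. Their bearing on the members was not tested.

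Whether caspase-1 loss lowered the genes was asked by setting these embryos against Casp8 D387A Cflar-/- Mlkl-/- embryos. No member was called with all 3 embryos, and the groups overlapped for all 10. Of all genes tested, 4.51% were called lower, 8.88% were called higher, and 26.3% had all 3 embryos lower. The log2 fold changes ran from -1.04 (Nlrc5) to 1.33 (Ubd), with a median of -0.35 against 0.03 over all genes. Nlrc5 alone had an unadjusted p under 0.05 (0.0332, adjusted p = 0.0665 in edgeR), DESeq2 called 0 and limma-voom 2. Without the third embryo all 10 members fell at an adjusted p under 0.05, with a median of -1.09, and 5 were called lower. In that fit 23.9% of all genes tested fell at an adjusted p under 0.05 and 6.36% were called lower. The 5 were Psmb8 (-1.79, adjusted p = 2.74e-06), Psmb9 (-1.39, adjusted p = 7.24e-05), Tap1 (-1.56, adjusted p = 3.41e-07), Nlrc5 (-2.37, adjusted p = 3.4e-07) and Ubd (-1.35, adjusted p = 0.00269). The sign of the Ubd difference therefore depended on that embryo. Without the first or the second of these embryos Ubd alone was called, and higher (1.84, adjusted p = 0.0323, and 1.83, adjusted p = 0.0399). The enterocyte markers summed to 11334 to 14513 RPKM after Casp1 loss against 923 to 1777 RPKM, with 5 of 5 called higher, and the neutrophil markers to 11.6 to 27.9 RPKM against 62.6 to 235 RPKM, with 4 of 5 called lower. All 4 leukocyte markers fell and 2 of 3 tested T and NK cell markers were called lower. Lower without overlap were also the sums of smooth muscle (1072 to 1118 against 1505 to 1889 RPKM) and fibroblast markers (464 to 530 against 637 to 662 RPKM). The dendritic cell markers summed to 1.41 to 3.54 RPKM against 4.86 to 9.57 RPKM, and the macrophage sums overlapped. How far these cell types enter the members' differences was not tested.

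Combined loss of Casp1 and Ifnar1 came with higher levels of all 10 genes. In Casp8 D387A Cflar-/- Mlkl-/- Casp1-/- Ifnar1-/- intestines, which lack the receptor for type I interferons, all 10 members had every library above every Mlkl-/- control, all 10 rose and 9 were called. Of all genes tested, 28.4% had groups apart in this direction, 24.7% rose and 6.76% were called higher. Psmb8 stood at 102, 130 and 138 RPKM, Tap1 at 81.4, 82.7 and 97.7 RPKM and Tapbp at 233, 229 and 262 RPKM. The log2 fold change over controls was 2.68 ± 0.427 for Psmb8 (adjusted p = 7.68e-05, edgeR with Benjamini-Hochberg adjustment), 3.01 for Tap1 (adjusted p = 1.43e-05) and 1.96 for Tapbp (adjusted p = 4.79e-05). Psme1 rose by 0.83 (adjusted p = 0.000667) and was the member not called. Ubd reached 904, 1786 and 2001 RPKM, from 104854 reads, which includes the highest level of any member in any library, with a log2 fold change of 11.91 ± 1.28 (adjusted p = 1.96e-06). The members' median was 2.21. Leukocyte markers summed to 75.6 to 91.8 RPKM in these embryos, above the controls' 46.7 to 51.8 RPKM, with 1 of 4 called higher. The macrophage markers (171 to 191 RPKM against 108 to 120 RPKM, 2 of 5 called higher), the dendritic cell markers (3.58 to 4.26 RPKM against 1.49 to 1.71 RPKM) and the general epithelial markers (1640 to 1757 RPKM against 1146 to 1297 RPKM, 1 of 5 called higher) were above the controls without overlap as well. The neutrophil markers summed to 25.7 to 44.8 RPKM against 4.40 to 28.6 RPKM, which overlap, with 2 of 5 called higher and 1 called lower. The enterocyte markers summed to 12188 to 16346 RPKM, below the controls, as were those of smooth muscle (932 to 1093 RPKM against 1208 to 1296 RPKM) and of fibroblasts (371 to 416 RPKM against 465 to 503 RPKM). A list of 4 pancreatic acinar markers summed to 18.1, 42.6 and 26.4 RPKM, above the 0.761 to 14.2 RPKM of the controls, with 1 of 3 tested called higher. The part of these cell types in the members' levels was not tested.

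Set against the Casp8 D387A Cflar-/- Mlkl-/- Casp1-/- embryos, the addition of Ifnar1 loss came with 5 called members (Psmb8, Psmb9, Tap1, Tapbp and Ubd), all higher, and 8 that rose at an adjusted p under 0.05. Of all genes tested, 3.28% were called higher and 15.5% rose. The log2 fold change was 1.18 for Psmb8 (adjusted p = 0.035, edgeR), 1.28 for Psmb9 (adjusted p = 0.00998) and 2.64 ± 0.771 for Ubd (adjusted p = 0.0166). Tap2 (0.71, adjusted p = 0.0762) and Nlrc5 (1.16, adjusted p = 0.0609) did not pass the test. Only Tapbp and Ubd of the members had groups that did not overlap, against 17.3% of all genes with all 3 embryos higher. Without the third Casp1-deleted embryo 9 members were called and all 10 rose, against 6.06% and 20.3% of all genes tested in that fit, with Ubd at 5.33 (adjusted p = 2.52e-08) and Psmb8 at 2.24. Leaving out the first or the second of those embryos left 1 and 0 calls, leaving out the second or the third Ifnar1-/- embryo left 3 in each case, and leaving out the first left 4. A fit of these 2 groups alone, with the third embryo in it, called 0. Between these groups the acinar markers were called higher in 3 of 3 tested, 1 of 5 general epithelial markers was called higher, 2 of 5 enterocyte markers were called lower and 3 of 3 endothelial markers fell. The fibroblast markers summed to 371 to 416 RPKM with Ifnar1 loss against 464 to 530 RPKM. Whether these cells bear on the members' difference was not tested.

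Loss of Fadd, the adaptor that brings caspase-8 to death receptors, came with the highest group mean of most members in the D387A set. In Casp8 D387A Cflar-/- Mlkl-/- Casp1-/- Fadd-/- intestines all 10 rose over Mlkl-/- controls with no overlap, and 9 were called. Of all genes tested, 18.6% had groups apart in this direction, 9.97% rose and 2.81% were called higher. Psmb8 stood at 173, 174 and 140 RPKM, Psmb9 at 134, 139 and 99.8 RPKM and Tap1 at 139, 138 and 120 RPKM. Every one of these values exceeded every control and every Casp8 D387A Cflar-/- Mlkl-/- embryo. The log2 fold changes were 3.07 ± 0.433 for Psmb8 (adjusted p = 0.000106, edgeR), 2.83 for Psmb9 (adjusted p = 4.33e-05) and 3.62 ± 0.411 for Tap1 (adjusted p = 1.57e-05). Nlrc5 stood at 5.55, 6.77 and 8.12 RPKM and Ubd at 255, 266 and 176 RPKM, with log2 fold changes of 4.81 ± 0.567 (adjusted p = 2.18e-05) and 9.16 ± 1.22 (adjusted p = 6.35e-05). Psme2 rose by 0.99 (adjusted p = 0.00217) and just missed the call, which it made at 1.11 (adjusted p = 0.00198) without the third of these embryos, at 1.04 (adjusted p = 0.00842) without the first control, and with DESeq2. The median over the members was 2.44.

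The Fadd-/- intestines had leukocyte marker sums of 43.1 to 55.6 RPKM, which overlapped the 46.7 to 51.8 RPKM of the controls. Their neutrophil markers summed to 6.35 to 29.0 RPKM against 4.40 to 28.6 RPKM. Their enterocyte markers summed to 21240 to 24992 RPKM, which overlapped the 20926 to 23395 RPKM of the controls. Macrophage markers (Adgre1, Csf1r, Cd68, C1qa and Mrc1) were higher without overlap, at 133 to 142 RPKM against 108 to 120 RPKM, as were the general epithelial markers Epcam, Cdh1, Vil1, Krt20 and Cdx2, at 1598 to 1677 RPKM against 1146 to 1297 RPKM. Smooth muscle markers (977 to 1067 RPKM against 1208 to 1296 RPKM) and fibroblast markers (389 to 437 RPKM against 465 to 503 RPKM) were lower without overlap, although none of their 8 genes passed the test. The part of these cells in the members' levels was not tested.

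Against the Casp8 D387A Cflar-/- Mlkl-/- Casp1-/- embryos, Fadd loss came with 4 members called higher (Psmb8, Psmb9, Tap1 and Nlrc5) and 8 that rose, where 2.56% of all genes tested were called higher and 10.5% rose. The log2 fold changes were 1.57 for Psmb8 (adjusted p = 0.0128, edgeR), 1.66 for Psmb9 (adjusted p = 0.00314), 1.64 for Tap1 (adjusted p = 0.0063) and 1.76 for Nlrc5 (adjusted p = 0.0129), with a median of 0.93 over the members. Ubd stood at -0.11 ± 0.728 (adjusted p = 0.941). Without the third Casp1-deleted embryo all 10 members were called, against 3.96% of all genes tested called higher in that fit, with a median of 2.06 and with Ubd at 2.58 (adjusted p = 3.35e-05). Without the first or the second embryo 3 and 2 were called, and a fit of the 2 groups alone called 0. Between these groups 3 of 5 enterocyte markers and 1 of 5 macrophage markers rose, 2 macrophage markers and 2 of 3 endothelial markers fell, and their bearing on the members was not tested.

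The order of the groups differed between members. For Psmb8, Tap1, Tap2, Nlrc5 and Psme1 the Fadd-/- embryos lay above those with Ifnar1 loss, with no overlap. For Tapbp and Ubd the Ifnar1-/- embryos were the highest, again with no overlap with the next group, and for Psme2 the 3 highest groups overlapped. The ratio of the highest to the lowest group mean in the D387A set was 2.14 for Psme1, 2.15 for Psme2, 2.63 for Psmb10, 3.88 for Tapbp, 4.15 for Tap2, 7.12 for Psmb9, 8.42 for Psmb8, 12.3 for Tap1 and 28.0 for Nlrc5. For Ubd it was 5106, read against a group with 19 reads.

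**Figure D3:**
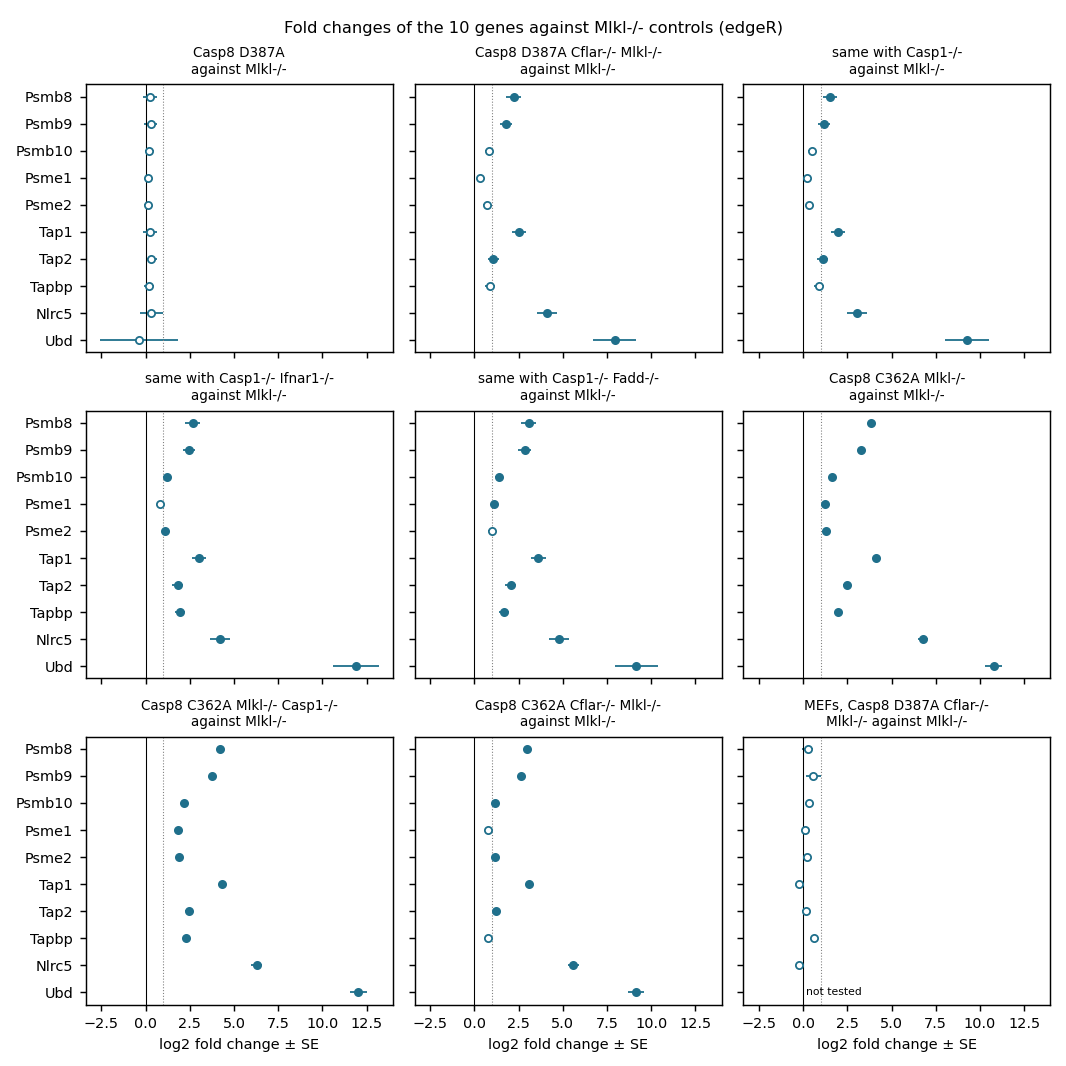
Log2 fold change of each member over the Mlkl-/- control of its own set in 9 comparisons, with bars for the standard error. Filled points passed both thresholds (adjusted p under 0.05 and log2 fold change above 1), open points did not, and the dotted line marks a log2 fold change of 1. Ubd is the farthest right in every intestine comparison with called members, and no point is filled for Casp8 D387A alone or for the MEFs.

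Catalytically inactive caspase-8 came with higher levels of the whole list. In Casp8 C362A Mlkl-/- intestines all 10 members were called higher than the Mlkl-/- controls of that set, with no overlap, against 10.4% of the 19408 genes tested called higher and 28.4% with groups apart in this direction. Psmb8 stood at 11.5, 17.4 and 16.3 RPKM in controls and at 226, 213 and 210 RPKM in the mutants. Tap1 stood at 7.36, 8.72 and 9.64 RPKM in controls and at 156, 136 and 157 RPKM in the mutants. The mutant libraries lay close together. The log2 fold change was 3.84 ± 0.159 for Psmb8 (adjusted p = 6.42e-10, edgeR with Benjamini-Hochberg adjustment), 3.25 ± 0.183 for Psmb9 (adjusted p = 6.88e-09) and 4.13 ± 0.17 for Tap1 (adjusted p = 6.17e-10). Tap2 rose by 2.45 (adjusted p = 2.04e-07), Tapbp by 1.99 (adjusted p = 8.97e-07), Psmb10 by 1.64, Psme2 by 1.29 and Psme1 by 1.22 (adjusted p = 7.93e-07). The median was 2.85 over the members and 0.02 over all genes.

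Nlrc5 was higher here than in any other group. It stood at 0.0815, 0.191 and 0.317 RPKM in the C362A controls (122 reads) and at 21.1 ± 2.56 RPKM (SD, n = 3) in Casp8 C362A Mlkl-/- embryos, from 4159, 5388 and 4772 reads, with no overlap. Its log2 fold change was 6.78 ± 0.307 (adjusted p = 9.82e-10, edgeR). Ubd went from 0.158, 0.222 and 0.234 RPKM (15 reads) to 290, 405 and 400 RPKM, and its log2 fold change was 10.77 ± 0.466 (adjusted p = 8.23e-10). In these embryos the leukocyte markers summed to 203 to 215 RPKM against 33.5 to 40.7 RPKM in controls, with 4 of 4 called higher, and the neutrophil markers to 549 to 677 RPKM against 13.7 to 43.7 RPKM, with 4 of 5 called higher. The macrophage markers (190 to 204 RPKM against 99.0 to 118 RPKM), the dendritic cell markers (13.3 to 16.6 RPKM against 1.55 to 1.95 RPKM) and the general epithelial markers (1576 to 1799 RPKM against 1159 to 1313 RPKM) also lay above the controls, and the enterocyte markers, at 8752 to 11046 RPKM, below their 18141 to 30716 RPKM. The T and NK cell markers summed to 3.67 to 5.16 RPKM against 1.36 to 1.85 RPKM, with 4 of 4 tested called higher, as was the 1 B cell marker tested (2.38). The part of these cell types in the members' levels was not tested.

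Deletion of Casp1 in this background left the pathway high. In Casp8 C362A Mlkl-/- Casp1-/- intestines all 10 members were again called higher than controls, against 6.79% of all genes tested, with a median of 3.09. Psmb8 stood at 250, 301 and 273 RPKM (log2 fold change 4.19, adjusted p = 3.72e-10, edgeR) and Ubd at 959, 1071 and 599 RPKM (12.04 ± 0.476, adjusted p = 4.22e-10). Nlrc5 stood at 15.4, 16.8 and 13.0 RPKM (6.29 ± 0.302, adjusted p = 2.25e-09). The neutrophil markers summed to 22.3 to 31.2 RPKM, within the 13.7 to 43.7 RPKM of the controls, and the leukocyte markers to 70.8 to 84.4 RPKM, above the controls, with 1 of 4 called higher. The macrophage markers (165 to 179 RPKM against 99.0 to 118 RPKM) and the general epithelial markers (1938 to 2109 RPKM against 1159 to 1313 RPKM) were higher without overlap, as were the dendritic cell markers (2.87 to 3.61 RPKM against 1.55 to 1.95 RPKM). Of 4 fibroblast markers 3 fell, 1 of them called lower, and 1 of 4 smooth muscle markers was called lower, while 1 of 4 tested T and NK cell markers was called higher. The part of these cell types in the members' levels was not tested.

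Compared directly with Casp8 C362A Mlkl-/- embryos, loss of Casp1 came with 1 called member, Ubd (1.26 ± 0.27, adjusted p = 0.00263, edgeR), where 5.60% of all genes tested were called higher. Psmb9 (0.50, adjusted p = 0.0312), Psmb10 (0.55, adjusted p = 0.00343), Psme1 (0.61, adjusted p = 0.000815) and Psme2 (0.60, adjusted p = 0.0114) rose without being called. How many of all genes tested rose in this way is not given here. Tap1 (0.20, adjusted p = 0.324) and Tap2 (-0.02, adjusted p = 0.946) overlapped between the groups. Psmb8 (0.35, adjusted p = 0.0741) and Tapbp (0.31, adjusted p = 0.197) did not pass the test. All 3 libraries lay higher after Casp1 loss for Psmb8, Psmb9, Psmb10, Psme1, Psme2, Tapbp and Ubd. For Nlrc5 all 3 lay lower, at a log2 fold change of -0.49 (adjusted p = 0.106). The share of all genes with groups apart in this comparison is not given here. Over the members the median was 0.42. Between these groups 4 of 4 leukocyte, 4 of 5 neutrophil and 4 of 4 tested dendritic cell markers were called lower and 5 of 5 enterocyte markers higher, and their bearing on the members was not tested.

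The effect of Casp1 loss was then compared between the 2 caspase-8 mutants in an interaction test over 30 libraries. No member was called, where 0.825% of all genes tested were called lower, 5 had an unadjusted p under 0.05, limma-voom called 2 and DESeq2 0. For Psmb10 (-0.87 ± 0.279, adjusted p = 0.033, edgeR), Psme1 (-0.69 ± 0.206, adjusted p = 0.022) and Psme2 (-0.93 ± 0.272, adjusted p = 0.0203) the effect was lower in the D387A Cflar-deficient intestines than in the C362A intestines, as for 6.03% of all genes tested at that adjusted p. Of the other proteasome subunits, 9 of 11 of the core particle, 11 of 18 of the regulatory particle and 2 of 3 constitutive catalytic subunits were lower at an adjusted p under 0.05 too. Over the members the median was -0.71. Without the third Casp8 D387A Cflar-/- Mlkl-/- Casp1-/- embryo 9 members were called lower, all but Tap2 (-0.65, adjusted p = 0.0602), against 2.23% of all genes tested, with a median of -1.54, and the Ubd difference went from 0.09 to -2.58 (adjusted p = 0.000474). The sets also differ in that the D387A intestines lacked Cflar and the C362A intestines did not.

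Loss of Cflar came with lower levels in C362A intestines. Casp8 C362A Cflar-/- Mlkl-/- embryos still exceeded controls at all 10 members with no overlap, and 8 were called, against 13.4% of all genes tested called higher and 28.3% with groups apart in this direction. Psmb8 stood at 118, 115 and 121 RPKM (log2 fold change 2.97 ± 0.154, adjusted p = 4.32e-09, edgeR), Nlrc5 at 9.31 ± 1.44 RPKM (SD, n = 3, log2 fold change 5.59) and Ubd at 94.8, 79.8 and 176 RPKM (9.13). Psme1 (0.78, adjusted p = 4.35e-05) and Tapbp (0.76, adjusted p = 0.00273) rose without being called, and Tap2 (1.22) lost its call without the third of these embryos (0.87, adjusted p = 1.78e-05). The median over the members was 1.94. Leukocyte markers summed to 144 to 187 RPKM and neutrophil markers to 279 to 476 RPKM in these embryos, both above their controls, with 4 of 4 and 4 of 5 called higher. Their macrophage markers summed to 145 to 169 RPKM, with Csf1r called lower (-1.69) and 2 of 5 called higher, their dendritic cell markers to 7.88 to 11.7 RPKM, and 4 of 4 tested T and NK cell markers were called higher. The acinar markers summed to 15.5, 76.0 and 3.99 RPKM against 0.901 to 2.85 RPKM, with 3 of 3 tested called higher, and the enterocyte markers to 1484 to 4180 RPKM against 18141 to 30716 RPKM in controls. Smooth muscle markers (1007 to 1216 RPKM against 528 to 937 RPKM) lay above the controls without overlap. The part of these cell types in the members' levels was not tested.

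Set directly against Casp8 C362A Mlkl-/- embryos, 9 members fell and 5 were called lower, where 12.4% of all genes tested fell and 4.62% were called lower. The transport and loading genes fell by similar amounts: Tap1 by 1.03 (adjusted p = 0.000469, edgeR), Tap2 by 1.22 (adjusted p = 0.000676) and Tapbp by 1.23 (adjusted p = 0.00052) on the log2 scale. Without the second Casp8 C362A Cflar-/- Mlkl-/- embryo the Tap1 value was -0.92 (adjusted p = 0.00335). Nlrc5 fell by 1.18 (adjusted p = 0.00251) and Ubd by 1.64 ± 0.273 (adjusted p = 0.00109). Of the catalytic subunits, Psmb8 fell by 0.87 (adjusted p = 0.000931), Psmb9 by 0.61 (adjusted p = 0.0201) and Psmb10 by 0.48 (adjusted p = 0.0139), as did Psme1 (-0.44, adjusted p = 0.0133). Psme2 stood at 49.1, 41.7 and 30.0 RPKM against 43.6, 46.3 and 40.5 RPKM, which overlap (-0.11, adjusted p = 0.682). All 5 enterocyte markers were called lower between these groups and 3 of 4 leukocyte markers fell. Lower without overlap were the sums of neutrophil (279 to 476 against 549 to 677 RPKM) and macrophage markers (145 to 169 against 190 to 204 RPKM). The same held for dendritic cell (7.88 to 11.7 against 13.3 to 16.6 RPKM) and general epithelial markers (949 to 1375 against 1576 to 1799 RPKM). Smooth muscle markers were higher without overlap (1007 to 1216 against 645 to 926 RPKM). The bearing of these cells on the members was not tested.

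Over the C362A set, the group order was Casp1-deleted, then Casp8 C362A Mlkl-/-, then Cflar-deleted, then control, with no overlap between neighbours, for Psmb8, Psmb9, Psmb10, Psme1, Tapbp and Ubd. For Nlrc5 the Casp8 C362A Mlkl-/- embryos were the highest. The ratio of the highest to the lowest group mean was 3.56 for Psme1, 3.70 for Psme2, 4.58 for Psmb10, 4.92 for Tapbp, 5.46 for Tap2, 13.5 for Psmb9, 18.3 for Psmb8, 20.1 for Tap1, 108 for Nlrc5 and 4282 for Ubd, where the Ubd controls had 15 reads.

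The 2 Cflar-deficient mutants were compared by the difference of their effects over their own controls. No member was called (0.0662% of all genes tested were called lower), and limma-voom and DESeq2 called 0 too. Psme1 alone had an unadjusted p under 0.05 (-0.45, adjusted p = 0.216, edgeR). The median over the members was -0.54, which means lower folds in the D387A mutants, with Nlrc5 at -1.50 (adjusted p = 0.244) and Psmb9 at -0.87 (adjusted p = 0.25).

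**Figure D4:**
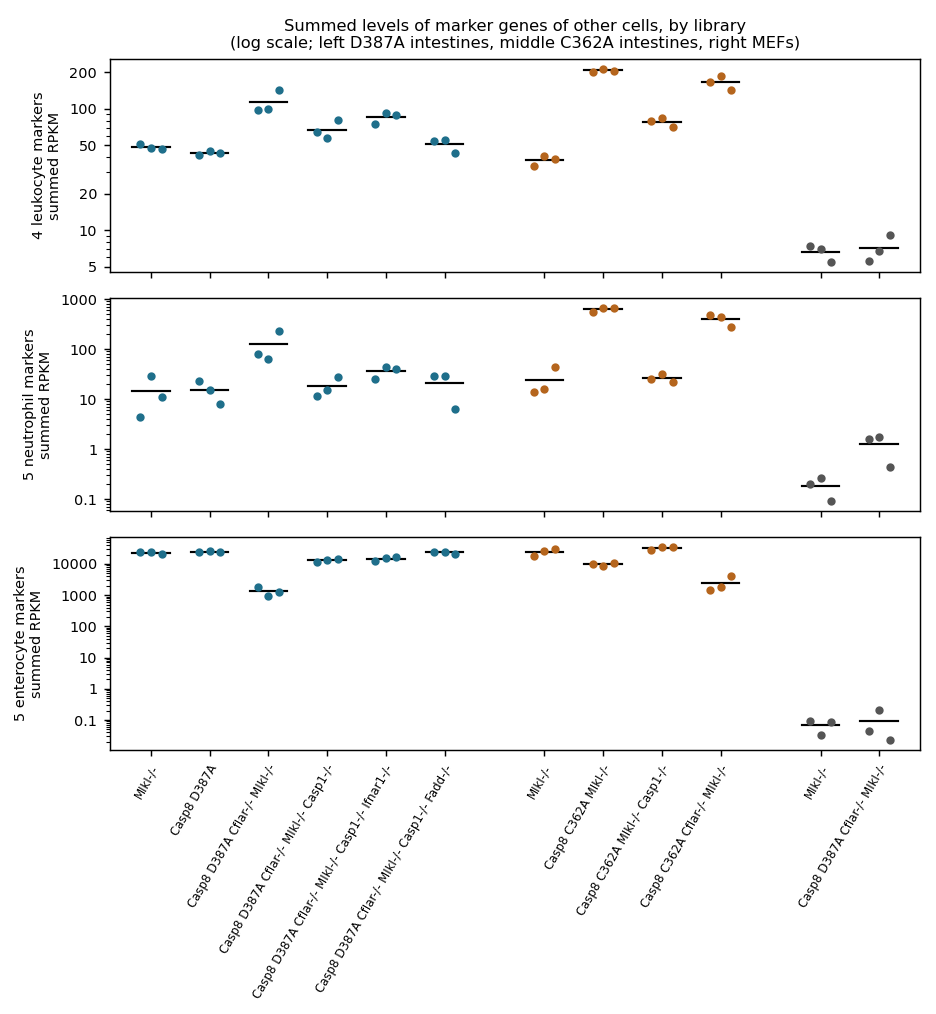
Summed RPKM (log axis) of 4 leukocyte markers, 5 neutrophil markers and 5 enterocyte markers in each library, by group. The Fadd-/- intestines overlap the D387A controls in all 3 panels, and the Casp8 C362A Mlkl-/- intestines have the highest leukocyte and neutrophil sums.

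Casp8 D387A Cflar-/- Mlkl-/- embryonic fibroblasts were set against Mlkl-/- fibroblasts without pairing of same-numbered libraries. None of the 9 members tested was called or had an adjusted p under 0.05 in edgeR, limma-voom and DESeq2 called 0, and 0.0711% of all genes tested were called higher. An unadjusted p under 0.05 was reached by 3 of them, Tapbp (log2 fold change 0.63 ± 0.0969, adjusted p = 0.109), Psmb10 (0.34, adjusted p = 0.66) and Tap1 (-0.27 ± 0.112, adjusted p = 0.741). How many of all genes tested reached it is not given here. Tapbp stood at 19.1, 17.1 and 17.9 RPKM in Mlkl-/- MEFs and at 24.8, 32.0 and 26.8 RPKM in the mutant MEFs, so that these groups did not overlap. Psmb10, at 8.65 to 8.98 RPKM against 9.74 to 12.4 RPKM in the mutants, did not overlap either. Tap1 stood at 6.64, 6.76 and 7.19 RPKM against 4.89, 5.87 and 6.27 RPKM, also without overlap and in the other direction. The share of all genes with groups apart in the MEFs is not given here. The members' median was 0.18.

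The fibroblasts had a different makeup of the pathway. Psmb9 was at 0.236 to 0.700 RPKM in all 6 MEF libraries (40 reads in the Mlkl-/- and 52 in the mutant MEFs), while its head-to-head neighbour Tap1 was at 4.89 to 7.19 RPKM. The Tap1 to Psmb9 ratio was 17.4 to 20.7 in Mlkl-/- MEFs and 8.40 to 20.7 in the mutants, but 0.560 to 0.652 in D387A control intestines and 0.953 to 1.09 in Casp8 D387A Cflar-/- Mlkl-/- intestines. These genes share exon bases on opposite strands, so with strand unknown the ratios carry that uncertainty. Nlrc5 stood at 0.455 to 0.704 RPKM in the MEFs. Ubd had 1 read in the Mlkl-/- MEFs and 2 in the mutants, too few for a fold.

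In the interaction test of the Cflar-deficient effect in intestine against MEFs, 3 members were called higher in intestine: Psmb8 (2.01 ± 0.66, adjusted p = 0.0197, edgeR), Tap1 (2.81 ± 0.506, adjusted p = 0.000137) and Nlrc5 (4.34 ± 0.698, adjusted p = 3.9e-05). Of all genes tested, 7.30% were called higher in this test. Tap2 (0.95, adjusted p = 0.0956), Psmb9 (1.22, adjusted p = 0.311), Psmb10 (0.50, adjusted p = 0.239) and Tapbp (0.29, adjusted p = 0.596) did not pass, nor did Psme1, Psme2 and Ubd. The Psmb8 difference lost its call without the second Mlkl-/- MEF library (1.75, adjusted p = 0.0718) or the first mutant MEF library (1.78, adjusted p = 0.0521).

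The share of each inducible catalytic subunit in the sum of it and its constitutive counterpart was computed per library from RPKM. The Psmb9 share of Psmb9 plus Psmb6 was 8.97%, 10.5% and 9.37% in D387A controls and 22.7%, 20.6% and 25.0% in Casp8 D387A Cflar-/- Mlkl-/- intestines. It was 38.2%, 42.9% and 37.6% after loss of Fadd and 37.0%, 37.9% and 37.4% in Casp8 C362A Mlkl-/- embryos. In the MEFs it was 0.161% to 0.441%. The shares were higher than in controls, without overlap, in each of these mutant intestines.

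The Psmb10 share of Psmb10 plus Psmb7 was 54.8%, 56.8% and 52.5% in D387A controls, 57.8% in each of the 3 Casp8 D387A Cflar-/- Mlkl-/- embryos, and 68.8% to 73.3% after loss of Fadd. In Casp8 C362A Cflar-/- Mlkl-/- intestines it was 53.3% to 57.8%, which overlapped the 49.1% to 54.7% of their controls, although Psmb10 itself rose there. The Psmb8 share of Psmb8 plus Psmb5 was 82.3% to 83.3% in D387A controls and 97.0% to 97.4% after loss of Fadd. Of the Psmb5 windows of 50 bases, 54.1% also occur in transcripts of other genes, against 1.05% for Psmb6 and 9.26% for Psmb7, so the Psmb8 share is the least certain. Over 42 pairs of share and comparison, 25 did not overlap (22 higher and 3 lower). With 3 libraries against 3 the two-sided exact permutation test cannot give a p under 0.1, which was 0.168 after adjustment.

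**Figure D5:**
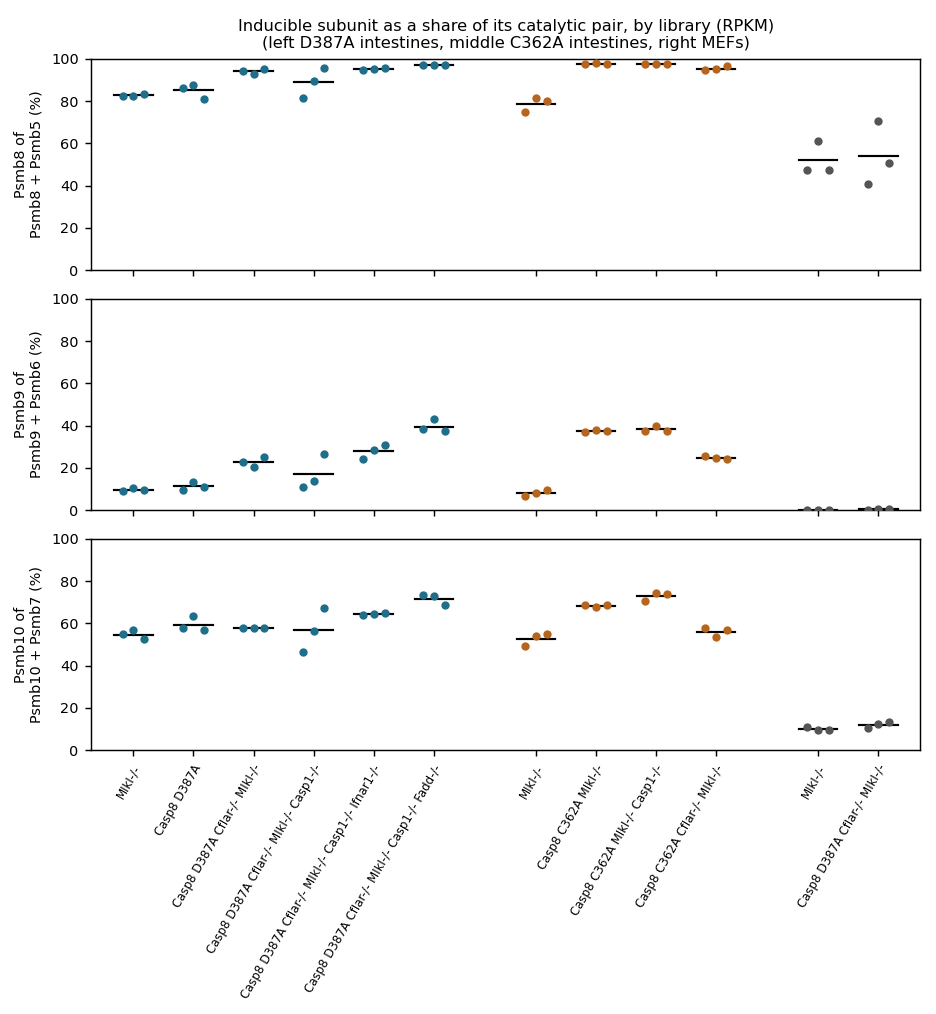
Share of the inducible subunit in each catalytic pair, in percent of the summed RPKM of both genes, for Psmb8 with Psmb5, Psmb9 with Psmb6 and Psmb10 with Psmb7. Points are the 3 libraries of a group and bars their mean. The Psmb9 share goes from 8.97% to 10.5% in D387A controls to 37.6% to 42.9% in the Fadd-/- intestines and is below 0.5% in every MEF library.

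The other subunits of the proteasome were read beside the members. None of the constitutive catalytic subunits Psmb5, Psmb6 and Psmb7 was called in any of the comparisons. Psmb7 rose by 0.63 in Casp8 D387A Cflar-/- Mlkl-/- intestines (adjusted p = 2.42e-06, edgeR with Benjamini-Hochberg adjustment) and by 0.69 in Casp8 C362A Mlkl-/- intestines (adjusted p = 4.94e-05). Of 11 other subunits of the core particle, 1 was called higher in Casp8 D387A Cflar-/- Mlkl-/- intestines, 3 with added loss of Casp1 and Ifnar1, 0 with added loss of Casp1 and Fadd, 2 in Casp8 C362A Mlkl-/-, 5 with added loss of Casp1 and 4 with added loss of Cflar. At an adjusted p under 0.05, 9, 11, 4, 10, 11 and 11 of them rose in the same order. Their medians were 0.44, 0.49, 0.36, 0.77, 1.00 and 0.82. Of 18 subunits of the regulatory particle, 1 was called in the last 2 comparisons each and none in the first 4, with medians of 0.52, 0.43, 0.22, 0.46, 0.62 and 0.49, while 16, 17, 5, 13, 13 and 12 rose at an adjusted p under 0.05. In the Casp8 D387A Cflar-/- Mlkl-/- Casp1-/- group no core subunit was called or rose (median 0.08), and 1 of 18 regulatory subunits rose without being called (median 0.10).

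The class I chains, to which the peptides are handed, were measured by H2-K1, H2-D1 and B2m. In Casp8 D387A Cflar-/- Mlkl-/- intestines B2m was called (1.16, adjusted p = 0.0014, edgeR), H2-D1 rose by 0.96 (adjusted p = 0.0107) and H2-K1 had a log2 fold change of 0.41 (adjusted p = 0.193). All 3 were called with added loss of Casp1 and Ifnar1 (H2-K1 at 1.76), with added loss of Casp1 and Fadd (H2-K1 at 1.58), in Casp8 C362A Mlkl-/- (H2-K1 at 1.82) and in Casp8 C362A Mlkl-/- Casp1-/- (H2-K1 at 2.43). In Casp8 C362A Cflar-/- Mlkl-/- intestines 2 of 3 were called and H2-K1 rose by 0.90 (adjusted p = 0.000673), and in the Casp8 D387A Cflar-/- Mlkl-/- Casp1-/- group none passed the test (0.63 to 0.74). Among the other genes of peptide trimming and loading, Erap1, Calr, Canx, Pdia3 and Tapbpl, the tapasin relative Tapbpl was the one called in each of the intestines that lacked Ifnar1 (1.58) or Fadd (1.44) and in Casp8 C362A Mlkl-/- (1.45) and Casp8 C362A Mlkl-/- Casp1-/- (2.01). The trimming peptidase Erap1 rose by 0.91 in Casp8 D387A Cflar-/- Mlkl-/- embryos (adjusted p = 3.2e-07), while the chaperones Calr (-0.10, adjusted p = 0.44) and Canx (0.11, adjusted p = 0.328) did not pass the test there.

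Values are given for some of the pathway's transcription factors. Irf1, an activator of Psmb9 and Tap1, rose by 0.66 in Casp8 D387A Cflar-/- Mlkl-/- (adjusted p = 0.00217, edgeR) and was called in the Ifnar1-/- (1.11) and Fadd-/- (1.14) embryos and in Casp8 C362A Mlkl-/- (1.68). Stat2, which acts with Irf9 behind the type I interferon receptor, was called at 1.05 in the Ifnar1-/- embryos (adjusted p = 0.00138) and at 1.89 in the Fadd-/- embryos (adjusted p = 3.64e-05). Of 2 partners of Nlrc5 at class I promoters, Rfxank fell by 0.91 in Casp8 D387A Cflar-/- Mlkl-/- (adjusted p = 3.94e-08), and Rfxap did not pass the test in any of these groups. Of the enzymes that attach FAT10 and the receptor that delivers it, Uba6, Ube2z and Nub1, none was called in any comparison, although Uba6 rose by 0.66 in Casp8 D387A Cflar-/- Mlkl-/- intestines (adjusted p = 4.09e-05).

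Transcripts of known inducers were few. Tnf rose by 5.62 in Casp8 D387A Cflar-/- Mlkl-/- intestines (adjusted p = 5.35e-06, edgeR; 6 reads in the controls and 373 in the mutants) and by 5.07 in Casp8 C362A Mlkl-/- intestines (adjusted p = 2.31e-07). With added loss of Casp1 it rose by 4.62 (adjusted p = 0.000846), with loss of Casp1 and Ifnar1 by 6.21 (adjusted p = 4.4e-06) and with loss of Casp1 and Fadd by 3.00 (adjusted p = 0.0361, 58 reads). Ifng had 94 reads in Casp8 C362A Mlkl-/- embryos and at most 9 in any other group. Ifnb1 had 0 reads in the controls of both sets, 1 in Casp8 D387A Cflar-/- Mlkl-/- intestines, 14 with added loss of Casp1 and Ifnar1, 49 with added loss of Casp1 and Fadd and 139 in Casp8 C362A Mlkl-/- Casp1-/- intestines.

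The members varied together over the libraries of a set. Pearson's r between their levels (log2 CPM, prior count 2) ran from 0.722 (Psme1 and Ubd) to 0.993 (Psmb8 and Psmb9) over 45 pairs in the 18 D387A intestines, with a median of 0.942. Without the third Casp1-deleted embryo the same pairs were at the ends, at 0.712 and 0.994, and the median was 0.942. In the 12 C362A intestines it ran from 0.825 (Tapbp and Nlrc5) to 0.997 (Psmb8 and Tap1), with a median of 0.940. These points share libraries and genotypes, and the values describe the groups' differences as much as those between embryos. Outside the members, the 5 genes most like their mean by Pearson's r were H2-Q4 (0.993), Gbp3 (0.991), Zbp1 (0.988), Slfn4 (0.987) and Oas2 (0.987) over the 18 D387A intestines, and the same 5 led without that embryo. Over the 12 C362A intestines they were Ifi47 (0.998), Irgm1 (0.998), Parp12 (0.997), Bst2 (0.997) and Sp100 (0.997).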

How the data were processed

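Whole intestines and MEFs were sequenced by the authors as single-end reads of 50 bases, aligned with GSNAP to GRCm38/mm10, and uniquely mapped reads were counted per gene. The deposited values are raw counts per gene with a gene width and an RPKM whose library total exceeds the sum of the gene counts, so RPKM was computed again here from the deposited counts and widths. The counting program, its annotation and its treatment of strand are not given in the sources used here, and the library kit named in the labels differs from the paper's, so strand was left unknown.

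The test was that of edgeR 4.0.16 under R 4.3.3 (filterByExpr at count 10 and total 15, TMM, quasi-likelihood test, prior count 0.125, Benjamini-Hochberg over all genes tested). A gene was called at an adjusted p under 0.05 with a log2 fold change above 1 or below -1. The 18 D387A intestines (18360 genes, biological coefficient of variation 0.132), the 12 C362A intestines (19408 genes, 0.162) and the 6 MEF libraries (15465 genes, 0.132) were fitted separately, and effects were compared between sets in fits of 30 or 24 libraries. A standard error is a fold change over the root of its F statistic. The median number of reads on genes was 24334001.5 per library. Samples were grouped by their genotype labels, and the Mlkl-/- intestines were placed in their set by their titles. No library repeated another of its group: pairs within a group differed by 5.005 to 70.8 times Poisson noise. Pairs across groups were not checked in this way. Replicate numbers were checked as pairs: same-numbered MEF libraries deviated together (r of 0.368 to 0.502 in 3 of 3 pairs), whereas the intestines did not. The MEF tests and the test of intestine against MEFs are given without a replicate block, so they do not use this pairing. A replicate block changed no MEF call.

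Members, gene lists, markers and comparisons were chosen with earlier results of these data known. By rule, all 10 members were examined in every comparison and are given there by value or within the counts and medians, with genes of the pathway lists where they bear on a member, the targeted genes, and the 5 genes most correlated with the members' mean. Alternatives were limma-voom 3.58.1, DESeq2 1.42.0, other size factors, filters and prior count, a replicate block, fits of the compared groups alone, and leaving out each library. Not every gene of the lists is reported here. Scripts were tested on simulated data. Shares, correlations and figures used Python 3.11.15, pandas 2.3.3, NumPy 2.4.6 and SciPy 1.17.1.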

Additional observations from a re-analysis of the deposited data

Results flagged for a closer look

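The effect of Casp1 loss differed between the D387A Cflar-deficient and the C362A intestines for 3 members by an interaction test (edgeR with Benjamini-Hochberg adjustment): Psmb10 at -0.87 (adjusted p = 0.033), Psme1 at -0.69 (adjusted p = 0.022) and Psme2 at -0.93 (adjusted p = 0.0203) on the log2 scale, as for 6.03% of all genes tested. Without the third Casp8 D387A Cflar-/- Mlkl-/- Casp1-/- embryo the values were -1.35, -1.02 and -1.28, and 9 members were called lower. Psmb10 stood at 66.0, 85.4 and 167 RPKM in the D387A Casp1-/- embryos against 128 to 143 RPKM in their counterparts with Casp1, and at 243 to 297 RPKM in the C362A Casp1-/- embryos against 170 to 197 RPKM.

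The effect of Cflar deficiency with caspase-8 D387A differed between intestine and MEFs for 3 members by the same kind of test: Psmb8 at 2.01 (adjusted p = 0.0197), Tap1 at 2.81 (adjusted p = 0.000137) and Nlrc5 at 4.34 (adjusted p = 3.9e-05). Nlrc5 stood at 3.39 to 4.67 RPKM in the mutant intestines against 0.222 to 0.278 RPKM in controls, and at 0.455 to 0.623 RPKM in the mutant MEFs against 0.557 to 0.704 RPKM. No formal outlier test was made within groups of 3.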

How the results depend on the processing

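The number of members called stayed within 1.5 times the reported count under all alternatives for the comparisons of Casp8 D387A, Casp8 D387A Cflar-/- Mlkl-/-, the Ifnar1-/- and the Fadd-/- intestines with controls, for all C362A comparisons and for the MEFs. Most changes involved the Casp8 D387A Cflar-/- Mlkl-/- Casp1-/- group. Against controls, 6 members were called there, limma-voom called 2, and a fit of the compared groups alone called 2. For Casp1 loss in the D387A set, 0 were called, limma-voom called 2, and no filter on low counts gave 2. For the difference of the Casp1 effects, limma-voom called 2 and no filter 1. For Ifnar1 loss and for Fadd loss, fits of the compared groups alone called 0 of the 5 and 4.

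Leaving out 1 library gave 2 to 7 calls for the Casp1-deleted group against controls, 0 to 5 for Casp1 loss, 0 to 9 for Ifnar1 loss, 2 to 10 for Fadd loss and 0 to 9 for the difference of the Casp1 effects. The ends at 5, 9, 10 and 9 and the 2 came without the third Casp1-deleted embryo, apart from the 2 of Fadd loss, which came without the second. Ubd reversed without the third embryo, to -1.35 for Casp1 loss (range to 1.84), 2.58 for Fadd loss (range from -0.62) and -2.58 for the difference of the Casp1 effects (range to 0.60). The ranges were 5 to 6 calls for Casp8 D387A Cflar-/- Mlkl-/-, 9 to 10 for Fadd-/- against controls, 7 to 8 and 4 to 5 for Cflar deletion in C362A, and 2 to 3 for intestine against MEFs. The cause of these changes was not tested.

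Replicate numbers did not pair the intestines (median same-number correlation of -0.005 in the D387A set and -0.11 in the C362A set), and with the replicate block 1 member (Nlrc5) was called for Casp1 loss in the D387A set, 6 for Ifnar1 loss and 5 for Fadd loss. Nlrc5 and Ubd in controls and Psmb9 in MEFs rest on few reads, and each group on 3 libraries.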
